A study of Homo sapiens with 21 samples.

Results

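The genes described here are 32 direct transcriptional targets of p53, the tumour suppressor, chosen by name and measured in HEK 293FT, cells derived from human embryonic kidney in which SV40 large T antigen is expressed. A gene was a member if its symbol was among the 32 names, matched to the symbol given first in the annotation of the deposited expression table. All 32 were found among 27142 genes. The names were chosen with earlier results of these data known. The 21 libraries fall into 7 groups of 3. All cells were transfected with plasmids by Lipofectamine and taken for RNA at 48 h, so a basal level below is the level in transfected cells, and untransfected cells were not analysed here. The shRNA groups received a non-targeting (NT) hairpin, a hairpin against ANXA4 or a hairpin against B4GALNT1. A short hairpin RNA (shRNA) is processed into a small RNA that directs Argonaute proteins to messenger RNA. The other groups received RfxCasR, a CRISPR nuclease that cuts RNA, with an NT guide RNA (gRNA), with a gRNA against B4GALNT1, with an NT array of guides or with an array of guides against ANXA4. The series title names the question as specificity, of RfxCasR and of matching shRNAs, and no other cell line was used.

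p53 is a transcription factor that DNA damage and other stresses stabilise. It binds response elements built from pairs of a consensus decamer and raises genes that halt the cell cycle, repair DNA, start apoptosis and adjust metabolism. MDM2, itself a p53 target, marks p53 for degradation and closes a feedback loop. SV40 large T antigen binds the DNA-binding domain of p53, which blocks its activity while the p53 protein accumulates, and it also binds the retinoblastoma proteins. Messenger RNA does not report p53 protein or its activity, and neither was measured. The large T transcript was not analysed here.

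RefSeq promoter windows (GRCh38.p14, from 250 bases before to 50 bases after the transcription start) were at hand for 25 of the 32 genes. Not matched were CMBL, GADD45A, PHLDA3, RRM2B, TNFRSF10A, TNFRSF10B and TP53INP1. The p53 consensus decamer, whose degenerate letters read the same on both strands, occurred in 4 of the 25 windows (16.0%), those of AEN, FDXR, PLK2 and RPS27L. It occurred in 6.63% of all 35114 promoter windows of the same length. A pair of copies spaced by at most 13 bases, the form of a full response element, occurred in 0 of the 25 and in 0.0285% of all windows. Only copies without a mismatch inside these windows were counted, so the 0 does not show that these genes lack response elements. The 4 letters CATG, a form of the centre of the decamer and the same on both strands, were in 6 of the 25 windows (24.0%) and in 54.9% of all. The 250 bases before the start of each of the 4 genes with a decamer are shown because these genes did not move alike in the comparisons below. Each is written 5′ to 3′ on the gene's own strand, and capitals mark the decamer. A match is a description of letters, not a binding site. The windows are chr15:88621090-88621339 on the plus strand for AEN, and on the minus strand chr17:74872995-74873244 for FDXR, chr5:58460087-58460336 for PLK2 and chr15:63157478-63157727 for RPS27L.
AEN: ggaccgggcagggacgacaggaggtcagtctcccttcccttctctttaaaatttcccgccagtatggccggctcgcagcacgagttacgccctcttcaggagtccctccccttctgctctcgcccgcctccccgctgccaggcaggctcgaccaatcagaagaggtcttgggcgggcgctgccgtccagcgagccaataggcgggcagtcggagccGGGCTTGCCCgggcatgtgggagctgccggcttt
FDXR: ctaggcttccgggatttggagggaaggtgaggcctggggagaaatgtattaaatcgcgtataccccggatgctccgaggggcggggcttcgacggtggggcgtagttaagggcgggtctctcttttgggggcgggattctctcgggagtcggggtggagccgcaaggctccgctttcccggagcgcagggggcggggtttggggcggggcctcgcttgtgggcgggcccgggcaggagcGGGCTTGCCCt
PLK2: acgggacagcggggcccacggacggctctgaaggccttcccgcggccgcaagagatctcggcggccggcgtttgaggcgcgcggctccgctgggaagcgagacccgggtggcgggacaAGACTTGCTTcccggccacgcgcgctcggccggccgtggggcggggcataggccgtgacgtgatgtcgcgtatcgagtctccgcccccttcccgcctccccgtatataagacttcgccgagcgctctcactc
RPS27L: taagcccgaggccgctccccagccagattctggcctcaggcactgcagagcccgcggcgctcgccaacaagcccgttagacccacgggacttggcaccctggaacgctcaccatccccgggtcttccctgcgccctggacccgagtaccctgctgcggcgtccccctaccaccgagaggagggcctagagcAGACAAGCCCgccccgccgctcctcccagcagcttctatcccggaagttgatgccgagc
The AEN and FDXR windows carry the same decamer, GGGCTTGCCC, at -34 and -11 from the start, counted at its first base. The PLK2 decamer, AGACTTGCTT, began at -132 and the RPS27L decamer, AGACAAGCCC, at -59.

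Levels are given in FPKM (fragments per kilobase of exon, scaled to library depth), which scales each gene by its length, so levels of different genes can be set side by side. The 15 libraries without arrays had recovered depths of 21.4 to 30.7 M reads (M, mega), and the 6 array libraries 34.7 to 39.5 M. The intermediate filament gene VIM, which the line is known to express, ranged from 388 to 682 FPKM, and the neuronal filament gene NEFL from 30.3 to 46.5 FPKM. The kidney-lineage factor PAX2 was at 0.186 to 1.32 FPKM. Of 7 markers of other cells, COL1A1 was at 4.17 to 11.0 FPKM, and the 6 for blood, endothelium, T cells, liver and muscle summed to 0.118 to 0.397 FPKM. The ANXA4 shRNA libraries held 2.15 to 2.56 FPKM of ANXA4 against 5.57 to 6.31 with the NT shRNA. B4GALNT1 was at 2.59 to 2.96 FPKM with its shRNA against 3.92 to 4.27, and at 2.03 to 2.35 FPKM with its gRNA against 5.09 to 6.88 with the NT gRNA. The array libraries went against their labels: the libraries labelled ANXA4 array held 6.76 to 7.22 FPKM of ANXA4, and those labelled NT array 2.54 to 3.34 FPKM. The authors' deposited table for ANXA4 array against NT array has the opposite sign, with ANXA4 at a log2 fold change of -1.21 (their adjusted p 7.53e-17). Across 12866 genes, which are not independent replicates, the log2 differences computed here correlated with that table at r = -0.942, and the other 3 comparisons with their tables at 0.935 to 0.967. The columns of the expression table and the deposited comparison therefore contradict each other on which array group is which. Directions between the array groups below follow the column labels of the expression table, and are the reverse of those in the authors' table.

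CDKN2A, whose ARF product restrains MDM2, was at 94.2 to 152.9 FPKM, the p53 relative TP73 at 3.87 to 6.02 FPKM, and TP63 at 0 to 0.045 FPKM. Most of the p53 targets were expressed. By median over the 21 libraries the order ran from CCNG1, an atypical cyclin that recruits a phosphatase to MDM2, at 65.0 FPKM, through PHPT1 (a phosphohistidine phosphatase, 56.7 FPKM), TRIAP1 (an inhibitor of apoptosis, 37.3 FPKM), GADD45A (a stress sensor that can arrest the cycle, 28.7 FPKM) and AEN (an apoptosis-enhancing nuclease, 25.7 FPKM). At the other end stood PLK3 at 1.45 FPKM, MDM4 at 1.20 FPKM, ZMAT3 at 0.975 FPKM, SPATA18 at 0.839 FPKM and the death receptor FAS at 0.464 FPKM. The ectodysplasin receptor EDA2R did not exceed 0.108 FPKM in any library and was listed at 0 in most of them. MDM2 had a median of 11.2 FPKM, DDB2, the damage-recognition subunit of nucleotide excision repair, 10.4 FPKM, and CDKN1A, which encodes the cyclin-dependent kinase inhibitor p21, 8.39 FPKM. Of the 31 pairs of neighbours in this order, 30 had overlapping ranges over the 21 libraries, and FAS and EDA2R did not.

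**Figure D1:**
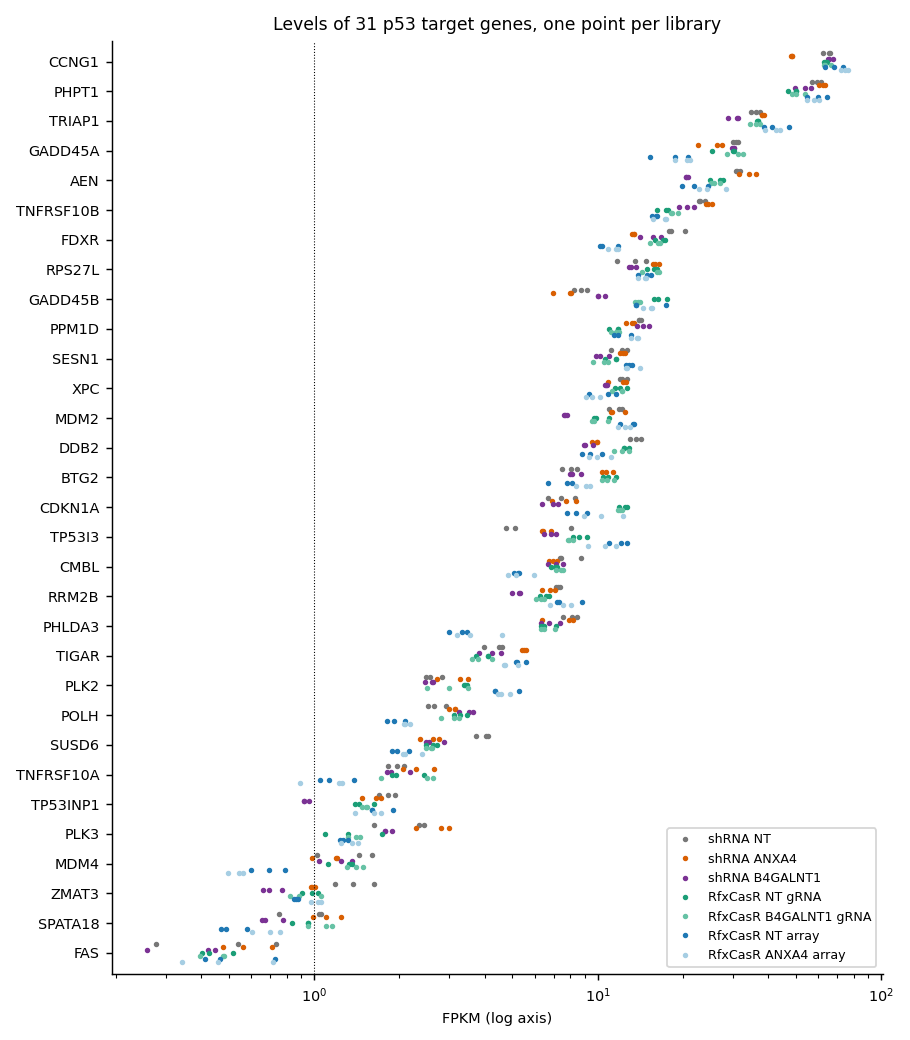
FPKM on a log axis for 31 of the 32 p53 target genes (EDA2R, listed at 0 in most libraries, is left out), sorted by median, with 1 point per library coloured by group and a dotted line at 1 FPKM. CCNG1, at the top, had a median of 65.0 FPKM and FAS, at the bottom, 0.464 FPKM. The B4GALNT1 shRNA points stand to the left of all others for MDM2 and TP53INP1. For AEN they stand to the left of the other libraries without arrays only.

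For testing, a gene had to reach 1 FPKM in 3 libraries or more, which 30 of the 32 members met among the 15 libraries without arrays (not EDA2R and FAS) and 27 among the 6 array libraries (also not MDM4, ZMAT3 and SPATA18). Differences are in log2(FPKM + 1), which understates changes of low genes, and a gene was called at a limma adjusted p under 0.05 over all genes tested. ZMAT3 reached 1 FPKM in all 3 libraries of the NT shRNA group, where it was highest, and of no other group. It also stood at 1.01, 1.03 and 1.06 FPKM in replicate 1 of the ANXA4 shRNA, NT gRNA and B4GALNT1 gRNA groups. ZMAT3 would thus have met the minimum without the NT shRNA libraries, though narrowly. With the filter removed, ZMAT3 gave the same log2 differences and was called in the same comparisons with the NT shRNA. Replicates are labelled biological, and whether they were separate cultures is not said, so the p-values reflect only how far these libraries spread.

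With the B4GALNT1 shRNA, 14 of the 30 tested p53 targets fell against the NT shRNA and 2 rose, POLH and GADD45B. The largest falls in log2(FPKM + 1), a scale that understates low genes, were those of AEN, MDM2, TP53INP1 and DDB2. By mean FPKM, ZMAT3 (1.39 to 0.709 FPKM) and TP53INP1 (1.82 to 0.933 FPKM) fell by the largest share. The limma test of this comparison called 49.4% of all 13554 genes, 28.9% lower and 20.5% higher, and among the members 46.7% were lower and 6.67% higher. The median difference was -0.147 over the members and -0.04 over all genes tested, on the log2 scale. CDKN1A was not called. The B4GALNT1 shRNA libraries lay below every NT shRNA library for 14 of the 30 members (46.7%) and for 32.6% of all genes tested. These were the same 14 that were called lower. With 3 libraries per group such a separation largely follows from the call, so it adds no further evidence.

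Of the feedback genes, MDM2 (hg19 chr12:69201952-69239324, plus strand) was at 12.2, 11.0 and 11.9 FPKM with the NT shRNA and at 7.83, 7.65 and 7.63 FPKM with the B4GALNT1 shRNA. The B4GALNT1 shRNA libraries lay together and well below the controls, and MDM2 fell by 34.1% (log2 difference -0.54 ± 0.06 SE, adjusted p = 2.92e-06). MDM4, the partner of MDM2 that masks the p53 activation domain, was at 1.44, 1.02 and 1.61 FPKM in the controls and 1.36, 1.04 and 1.24 FPKM with the hairpin, and the groups overlapped. PPM1D, a phosphatase that switches the response off, was at 14.1 FPKM in the controls and 14.4 FPKM with the hairpin and did not pass the test. CCNG1 was at 64.6 and 66.1 FPKM and did not pass it either.

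Among repair and DNA metabolism genes, DDB2 (hg19 chr11:47236493-47260769, plus strand) stood at 13.0, 14.2 and 13.7 FPKM in the NT shRNA libraries and 9.06, 8.93 and 9.60 FPKM in the B4GALNT1 shRNA libraries. DDB2 fell by 32.5% with no overlap of the groups (log2 difference -0.52 ± 0.05 SE, adjusted p = 4.43e-07). RRM2B, the p53-inducible small subunit of ribonucleotide reductase, went from 7.25, 7.36 and 7.15 FPKM to 5.34, 4.98 and 5.27 FPKM, and fell by 0.41 ± 0.05 log2 (SE, adjusted p = 4.9e-06). XPC, which detects lesions for excision repair, fell by 0.18 on the log2 scale, with 10.7 to 10.8 FPKM in all 3 hairpin libraries. POLH, the translesion polymerase eta, moved the other way. Its NT shRNA libraries held 2.65, 2.53 and 2.93 FPKM and its B4GALNT1 shRNA libraries 3.52, 3.62 and 3.25 FPKM, a rise of 0.27 ± 0.06 log2 (SE, adjusted p = 0.00259).

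Of the apoptosis genes, AEN (hg19 chr15:89164527-89175512, plus strand) held 30.8, 31.2 and 31.9 FPKM with the NT shRNA and 20.5, 20.9 and 20.5 FPKM with the B4GALNT1 shRNA. Its groups were far apart, and AEN had the smallest adjusted p of the members here (log2 difference -0.58 ± 0.05 SE, adjusted p = 1.19e-07). TP53INP1, a stress protein that promotes p53 phosphorylation and autophagy, went from 1.82, 1.70 and 1.93 FPKM to 0.918, 0.921 and 0.961 FPKM. TP53INP1 fell by 48.6% on the FPKM scale (log2 difference -0.54 ± 0.07 SE, adjusted p = 1.33e-05). TRIAP1 fell by 0.24, the death receptor gene TNFRSF10B by 0.17 and PHLDA3, which restrains AKT, by 0.21 on the log2 scale. The TNFRSF10B call was lost when libraries were centred on their medians (adjusted p = 0.0539). The PHLDA3 call was lost on centring (0.116), with quantile scaling (0.129), with voom (0.12), without the filter (0.0768), in 1 fit over 21 libraries (0.0796), and when any of NT shRNA replicates 1 and 3 or B4GALNT1 shRNA replicates 2 and 3 was left out (adjusted p 0.084 to 0.147). TP53I3, an oxidoreductase linked to oxidative stress, and TNFRSF10A did not pass the test.

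Of the arrest genes, CDKN1A (hg19 chr6:36646456-36655116, plus strand) was at 6.71, 8.35 and 7.43 FPKM in the controls and at 7.25, 6.38 and 6.94 FPKM with the B4GALNT1 shRNA. The groups overlapped, and the log2 difference of -0.11 had an interval from -0.26 to 0.04 (95%, adjusted p = 0.215). GADD45B, a relative of GADD45A, rose from 8.29, 8.74 and 9.17 FPKM to 10.0, 10.6 and 10.1 FPKM (log2 difference 0.21 ± 0.05 SE, adjusted p = 0.00569). BTG2, an antiproliferative gene, and the polo-like kinase genes PLK2 and PLK3 did not pass the test. Nor did GADD45A, TIGAR, RPS27L, SPATA18 and CMBL. Among the others, SUSD6 fell from 4.12, 4.04 and 3.72 FPKM to 2.48, 2.54 and 2.86 FPKM (log2 difference -0.45 ± 0.06 SE, adjusted p = 3.45e-05). ZMAT3, an RNA-binding zinc finger protein, fell from 1.62, 1.19 and 1.37 FPKM to 0.769, 0.662 and 0.696 FPKM (log2 difference -0.48, limma adjusted p = 0.000124 without the filter). FDXR, the mitochondrial ferredoxin reductase, fell by 0.26, the stress-induced sestrin gene SESN1 by 0.19 and PHPT1 by 0.15 on the log2 scale. The SESN1 call was lost without NT shRNA replicate 3 (adjusted p = 0.0552), and the PHPT1 call without NT shRNA replicate 2 (0.0777) or B4GALNT1 shRNA replicate 1 (0.105), on median centring (0.121) and with voom (0.053). In the authors' deposited table for this comparison, 11 of 31 members were lower and 1 higher at the same threshold, where 18.9% of its 15944 genes were lower and 20.1% higher, and MDM2 had a log2 fold change of -0.56. ZMAT3 (-0.93) and TP53INP1 (-0.92) fell furthest of the members there.

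**Figure D2:**
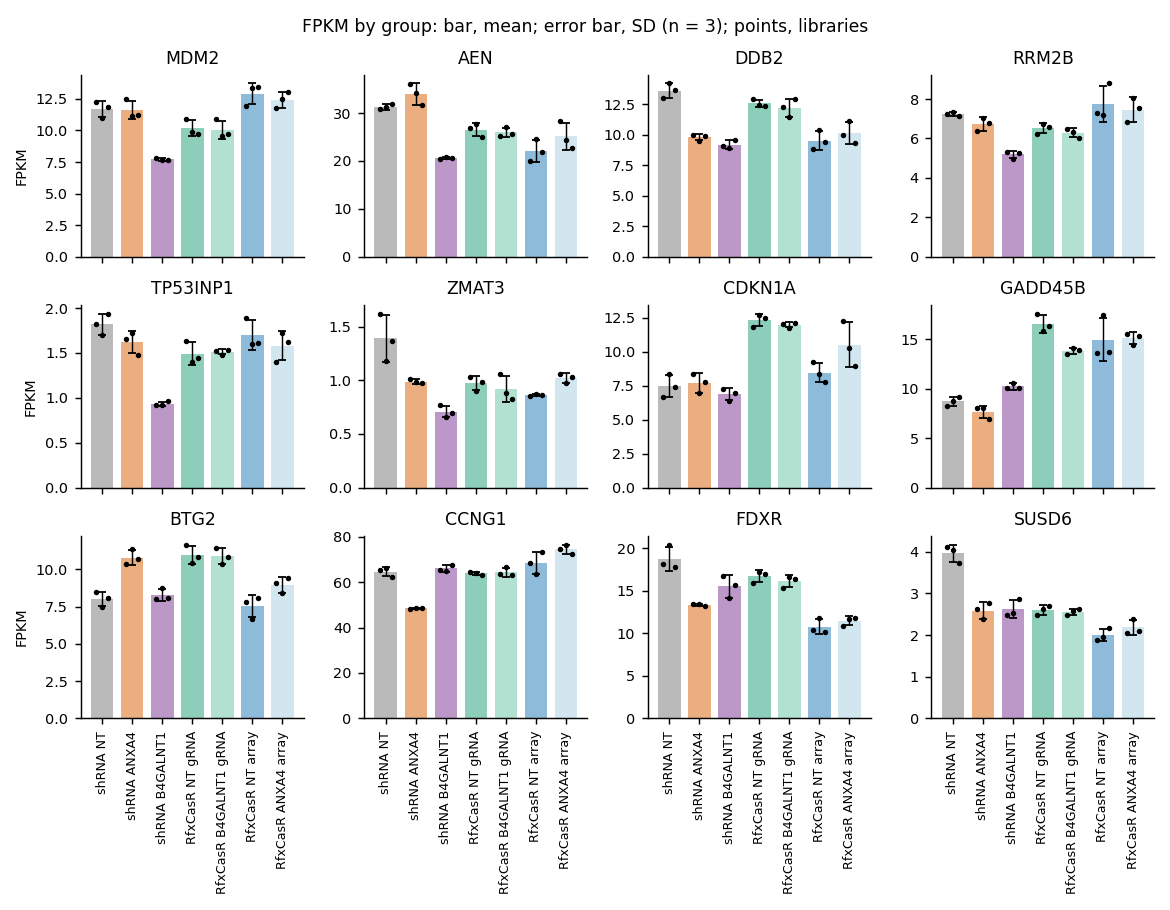
FPKM of 12 p53 target genes in the 7 groups, with bars for the mean, error bars for the SD of 3 libraries and a point per library, on axes that start at 0. MDM2, AEN, RRM2B and TP53INP1 are low with the B4GALNT1 shRNA, and CCNG1 is low with the ANXA4 shRNA. CDKN1A has its highest means with the single RfxCasR guides, and GADD45B is high in all RfxCasR groups, arrays included.

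With the ANXA4 shRNA, 8 of the 30 members fell against the same NT shRNA libraries and 4 rose, where 56.1% of all genes were called (28.3% lower, 27.8% higher). The members' shares were 26.7% lower and 13.3% higher, and their median difference was 0.01 log2 against -0.01 over all genes. That median had no fixed sign: it was -0.03 without NT shRNA replicate 2 and 0.03 without ANXA4 shRNA replicate 2, and it was also below 0 without replicate 1 of either group and with a filter of 5 FPKM. MDM2 was at 12.5, 11.2 and 11.2 FPKM with this hairpin, a difference of -0.01 ± 0.06 log2 (SE), with an interval from -0.13 to 0.12. MDM4 was at 0.987, 1.21 and 1.20 FPKM and CDKN1A at 8.36, 6.94 and 7.76 FPKM, each overlapping its controls. The gene with the smallest adjusted p was CCNG1, which fell from 65.5, 66.2 and 62.2 FPKM to 48.1, 48.4 and 48.7 FPKM (log2 difference -0.41 ± 0.03 SE, adjusted p = 2.16e-08). DDB2 fell to 9.96, 9.53 and 9.93 FPKM (-0.44 ± 0.05 log2, SE, adjusted p = 1.82e-06), all below the controls. FDXR went from 18.1, 20.4 and 17.8 FPKM to 13.4, 13.4 and 13.2 FPKM and fell by 0.46 on the log2 scale. SUSD6 stood at 2.63, 2.37 and 2.77 FPKM and fell by 0.47. GADD45A went from 30.1, 31.3 and 30.7 FPKM to 26.4, 22.5 and 27.5 FPKM and fell by 0.27. The hairpin and control groups did not overlap for any of these 5 genes.

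BTG2 rose with the ANXA4 shRNA, from 8.49, 7.49 and 8.04 FPKM to 10.3, 11.4 and 10.7 FPKM (log2 difference 0.39 ± 0.06 SE, adjusted p = 3.38e-05). TIGAR, a phosphatase that slows glycolysis, rose from 4.47, 3.97 and 4.62 FPKM to 5.50, 5.40 and 5.60 FPKM (0.28 log2). RPS27L, a ribosomal protein paralogue, rose from 13.5, 14.8 and 11.7 FPKM to 16.5, 15.9 and 15.6 FPKM (0.25 log2). AEN was at 36.1, 34.2 and 31.7 FPKM, overlapping its controls, and was called higher by 0.11 log2 (limma adjusted p = 0.0486). That call was lost on leaving out any of 5 libraries: NT shRNA replicates 1 to 3 and ANXA4 shRNA replicates 1 and 2 (adjusted p 0.0578 to 0.226). It was also lost with a pseudocount of 0.1 (0.0503), without the filter (0.0729) and without the variance trend (0.0652). The fit over 21 libraries (0.192) and the fit of only the groups compared (0.0727) did not call AEN either. ZMAT3 fell by 0.26, GADD45B by 0.17 and CMBL, a hydrolase, by 0.15 on the log2 scale. The ZMAT3 call was lost without NT shRNA replicate 1 (adjusted p = 0.0867). The GADD45B call was lost without replicate 3 of either group (0.0752 and 0.0949), with voom (0.134), in the fit over 21 libraries (0.0623) and in that of only the groups compared (0.0564). The CMBL call was lost without NT shRNA replicate 1 or any ANXA4 shRNA replicate (0.0526 to 0.248) and on median centring (0.0621). CMBL was also not called with quantile scaling (0.085), without the filter (0.071), in the same fits over 21 libraries (0.0693) and of only the groups compared (0.0996), or with a replicate block (0.0589). With libraries centred on their medians, 6 members were higher and 7 lower. The authors' deposited table had 5 higher and 6 lower of 31, where 23.0% of its 15944 genes were higher and 22.1% lower.

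Both hairpin comparisons use the same 3 NT shRNA libraries, which lay above the other 12 libraries without arrays for DDB2, FDXR, ZMAT3, RRM2B and SUSD6 (5 of 30 members, against 11.3% of all genes tested). The hairpins were therefore also compared with each other, without those controls. Against the ANXA4 shRNA, the B4GALNT1 shRNA libraries were lower for 16 of 30 members and higher for 5, where 51.5% of all genes were called, 29.8% lower and 21.7% higher. The median difference was -0.193 log2 over the members and -0.03 over all genes. AEN was 39.3% lower by the means of 20.6 and 34.0 FPKM (log2 difference -0.69 ± 0.05 SE, adjusted p = 1.45e-08), and MDM2 fell by 0.54, TP53INP1 by 0.44 and RRM2B by 0.32 on the log2 scale. TRIAP1 went from 38.6, 38.1 and 38.1 FPKM with the ANXA4 shRNA to 28.8, 31.3 and 30.9 FPKM (-0.33 log2). BTG2 was lower by 0.35 log2. PHPT1, PLK2, PLK3, RPS27L, SESN1, SPATA18, TIGAR, TNFRSF10B, XPC and ZMAT3 were also called lower. CCNG1 was higher by 0.44 log2, GADD45B by 0.38, GADD45A by 0.24, FDXR by 0.20 and PPM1D by 0.13. DDB2 had means of 9.20 and 9.81 FPKM and was not called. The GADD45A call was lost without ANXA4 shRNA replicate 2 (adjusted p = 0.0676), the FDXR call without B4GALNT1 shRNA replicate 1 (0.0665) and the PPM1D call without replicate 2 of either hairpin (0.0928 and 0.107). The XPC call was lost without ANXA4 shRNA replicates 2 or 3 or any B4GALNT1 shRNA replicate (0.0601 to 0.144). The PLK2 call was lost without ANXA4 shRNA replicates 1 or 2 or any B4GALNT1 shRNA replicate (0.0716 to 0.177), and the ZMAT3 call without any of the 6 libraries (0.0515 to 0.107). Median centring also ended the XPC, PLK2 and ZMAT3 calls (0.0912 to 0.128). XPC was also not called with quantile scaling (0.101), over 21 libraries (0.0831) or with voom (0.104). PLK2 was also not called without the filter (0.0843), with quantile scaling (0.0831) or with voom (0.0821). The fit of only the groups compared called none of XPC (0.0689), PLK2 (0.06) and PPM1D (0.0607).

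The B4GALNT1 shRNA libraries were below the other 12 libraries without arrays for MDM2, AEN, TP53INP1, ZMAT3, RRM2B, XPC and TRIAP1, 7 of 30 members, and for 8.24% of all genes tested. They were above the others for 0 of 30 and for 4.27% of all genes. Of the 30 members, 28 were called in at least 1 of the 6 pairwise comparisons, and MDM4 and TNFRSF10A in none. Of all 13554 genes tested, 84.1% were called in at least 1 of the 6.

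**Figure D3:**
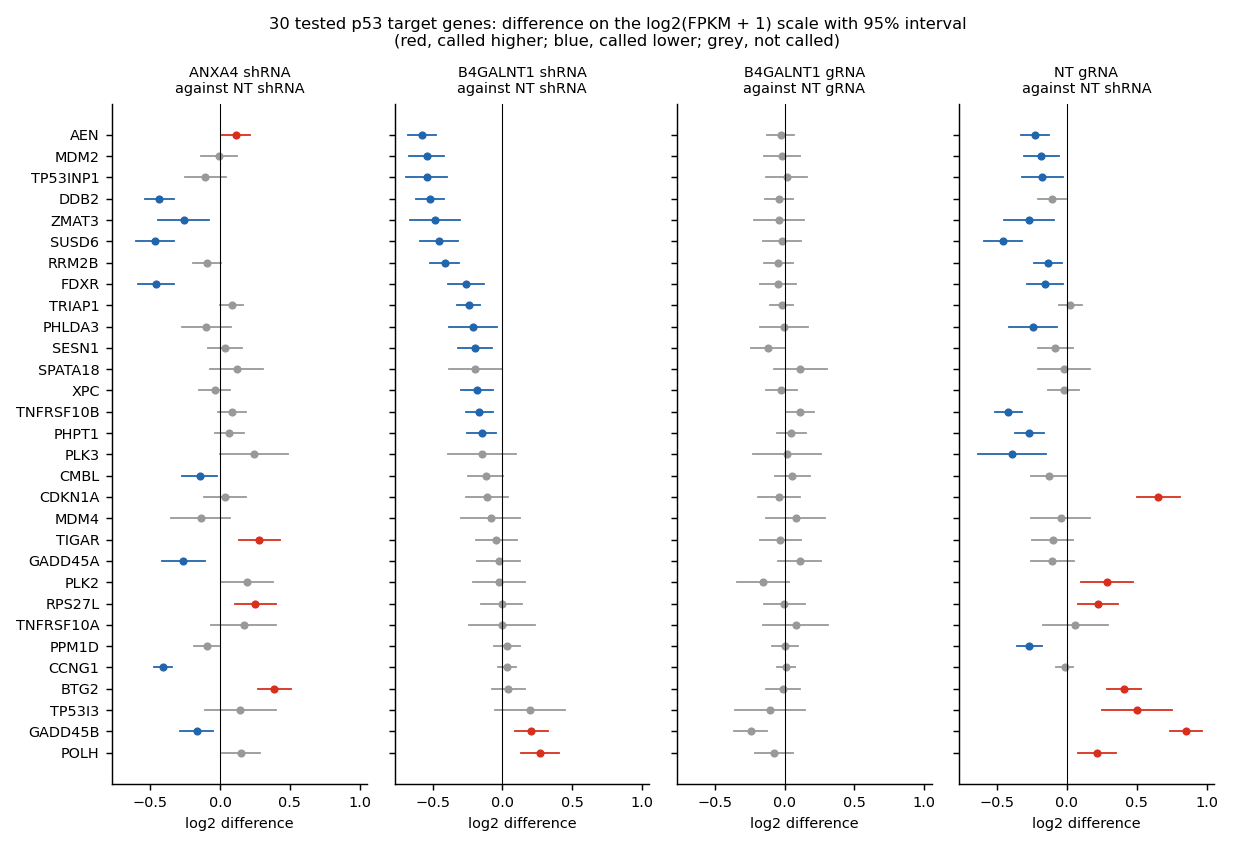
Differences on the log2(FPKM + 1) scale with 95% intervals for the 30 tested members in 4 comparisons, red for called higher, blue for called lower and grey for not called, sorted by the B4GALNT1 shRNA difference. AEN, at the top, was at -0.58 with the B4GALNT1 shRNA and -0.03 with the B4GALNT1 gRNA, and every member is grey in the gRNA column.

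With the RfxCasR gRNA against B4GALNT1, limma called 0 of 30 members and 0.0221% of all genes against the NT gRNA. At an unadjusted p under 0.05 there were 2 of 30 members (6.67%) and 6.2% of all genes, and voom on recovered reads also called 0 members. MDM2 was at 10.9, 9.89 and 9.73 FPKM with the NT gRNA and at 10.9, 9.55 and 9.71 FPKM with the B4GALNT1 gRNA, a difference of -0.02 log2 with an interval from -0.15 to 0.11. AEN stood at 26.9, 27.7 and 25.0 FPKM against 25.2, 27.0 and 25.7 FPKM, with an interval from -0.13 to 0.07. DDB2 was at 12.9, 12.4 and 12.4 FPKM and 12.2, 11.4 and 12.9 FPKM, with an interval from -0.14 to 0.06. All 3 pairs of groups overlapped. CDKN1A held 11.9, 12.7 and 12.5 FPKM against 12.0, 11.8 and 12.2 FPKM, and MDM4 1.36, 1.33 and 1.12 FPKM against 1.40, 1.30 and 1.49 FPKM. GADD45B, named here because it had the largest difference of the members, was at 17.6, 15.9 and 16.3 FPKM with the NT gRNA and 13.5, 14.1 and 13.9 FPKM with the targeting gRNA (-0.24 log2, adjusted p = 0.326). The members' 95% intervals ran from -0.36 to 0.31 log2.

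The difference between the B4GALNT1 effect by shRNA and by gRNA was itself tested. It was called for 12 of 30 members, 10 lower with the hairpin and 2 higher, where 35.5% of all genes were called (20.2% lower, 15.3% higher). MDM2 differed by -0.52 ± 0.08 log2 (SE, adjusted p = 0.00022), AEN by -0.55 ± 0.07 (1.62e-05), DDB2 by -0.48 ± 0.07 (6.69e-05), TP53INP1 by -0.56 ± 0.10 (0.000476) and RRM2B by -0.37 ± 0.07 (0.000659). Each against its own NT control, B4GALNT1 itself fell further with the gRNA than with the hairpin (difference 0.67 ± 0.11 log2, SE, limma adjusted p = 0.000333). The targeted groups had means of 2.21 FPKM with the gRNA and 2.78 FPKM with the hairpin. Their controls lay further apart, at 5.89 FPKM with the NT gRNA and 4.08 FPKM with the NT shRNA. With the ANXA4 shRNA the mean was 5.64 FPKM. The difference in effect therefore includes the difference between the controls.

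The NT gRNA and NT shRNA groups differ in both the method and the control sequence, which cannot be told apart. Of 30 members, 7 were higher and 12 lower with RfxCasR and the NT gRNA, where 53.5% of all genes were called, 24.5% higher and 29.0% lower. GADD45B and CDKN1A, both arrest genes, rose most. CDKN1A stood at 11.9, 12.7 and 12.5 FPKM with the NT gRNA and 6.71, 8.35 and 7.43 FPKM with the NT shRNA, with no overlap. It was 64.7% higher (log2 difference 0.66 ± 0.07 SE, adjusted p = 2.72e-06). GADD45B was 89.9% higher, at means of 16.6 and 8.73 FPKM (0.85 ± 0.05 log2, SE, adjusted p = 1.5e-08). BTG2, at 11.7, 10.4 and 10.9 FPKM, was higher by 0.41 log2. PLK2 held 3.38, 3.47 and 3.40 FPKM against 2.57, 2.82 and 2.49 FPKM, with no overlap (0.29 log2). TP53I3 held 9.20, 8.63 and 8.22 FPKM against 4.75, 8.04 and 5.12 FPKM (0.50 log2). POLH and RPS27L were also higher, but POLH not without NT shRNA replicate 2 (adjusted p = 0.0502) and RPS27L not without NT shRNA replicate 3 (0.0676).

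MDM2 was lower with the NT gRNA, by means of 10.2 and 11.7 FPKM (-0.18 log2, adjusted p = 0.0179), and its call was lost without NT shRNA replicates 1 or 3 or NT gRNA replicates 2 or 3 (0.0524 to 0.0736) and on median centring (-0.14 log2, adjusted p = 0.0569). The others lower were led by TNFRSF10B, at 17.8, 16.2 and 17.4 FPKM against 24.0, 22.9 and 22.9 FPKM (-0.42 ± 0.05 log2, SE, adjusted p = 3.05e-06). PPM1D stood at 11.8, 11.0 and 11.8 FPKM against 14.3, 14.1 and 14.0 FPKM (-0.27 log2). PHPT1 was at 47.0, 50.1 and 50.03 FPKM against 57.1, 61.3 and 59.5 FPKM (-0.27 log2). Neither gene's groups overlapped. SUSD6 fell by 0.46 and AEN by 0.23 on the log2 scale. PLK3 held 1.32, 1.73 and 1.10 FPKM against 2.35, 2.45 and 1.62 FPKM, and its groups overlapped despite its call (adjusted p = 0.00896). ZMAT3, PHLDA3, TP53INP1, FDXR and RRM2B made up the rest. The ZMAT3 call was lost without NT shRNA replicate 1 (adjusted p = 0.0736), the FDXR call without NT shRNA replicate 2 or NT gRNA replicates 1 or 3 (0.062 to 0.195), and the RRM2B call without NT shRNA replicates 1 or 2 or NT gRNA replicate 1 (0.0596 to 0.11). The PHLDA3 call was lost without NT shRNA replicates 1 or 3 or NT gRNA replicates 1 or 2 (0.0506 to 0.0728), and the TP53INP1 call without NT shRNA replicates 1 or 3 or NT gRNA replicates 2 or 3 (0.087 to 0.136). With median centring the counts became 7 higher and 7 lower, and the calls lost were those of MDM2, FDXR, TP53INP1, RRM2B and PHLDA3 (adjusted p 0.0569 to 0.148). FDXR was also not called with quantile scaling (0.103), without the filter (0.0667), without the variance trend (0.0514) or with voom (0.0689). Nor was it over 21 libraries (0.0501) or with a replicate block (0.0531). TP53INP1 was also lost with a pseudocount of 0.1 (0.0535), over 21 libraries (0.0509), in only the groups compared (0.0901) and with a replicate block (0.0515). RRM2B was also lost with quantile scaling (0.102), over 21 libraries (0.1) and with voom (0.0676).

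Between the libraries labelled ANXA4 array and NT array, limma called 0 of 27 members and 0.031% of all genes, and voom on recovered reads called 0 members. At an unadjusted p under 0.05 there were 3 of 27 members with limma and 4 with voom, beside 5.2% of all genes with each. In the libraries labelled NT array, MDM2 was at 12.0, 13.4 and 13.4 FPKM, AEN at 19.9, 24.5 and 21.8 FPKM, DDB2 at 8.80, 10.4 and 9.40 FPKM and CDKN1A at 9.21, 8.39 and 7.81 FPKM. In those labelled ANXA4 array, MDM2 was at 11.8, 12.5 and 13.0 FPKM, AEN at 28.3, 24.4 and 22.7 FPKM, DDB2 at 9.97, 11.2 and 9.33 FPKM and CDKN1A at 12.3, 10.3 and 8.97 FPKM. The groups overlapped for all 4. MDM4 was at 0.792, 0.691 and 0.597 FPKM and at 0.562, 0.545 and 0.497 FPKM, under the minimum for the test. The members' intervals ran from -0.37 to 0.51 log2, wider than those of the single guides.

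As a description of levels, the 6 array libraries lay below the 6 single-guide libraries for 11 of 30 members, where 24.7% of all genes did so, and above them for 8, where 18.3% did. Those below included DDB2, MDM4, FDXR, PHLDA3 and GADD45A, and those above MDM2, RRM2B, SESN1, TIGAR and TP53I3. The arrays were sequenced more deeply, so array and depth cannot be told apart. The labels name no processing batch, and whether the arrays were processed separately is not known. No test was made.

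The wider pathway was read from lists of named genes, chosen with earlier results of these data known. Their counts stand beside the shares over all genes: 28.9% lower and 20.5% higher with the B4GALNT1 shRNA, 28.3% and 27.8% with the ANXA4 shRNA, 29.0% and 24.5% with the NT gRNA against the NT shRNA, and 20.2% and 15.3% in the test of hairpin against guide. Of 29 tested genes that act on or with p53 (MDM2 and MDM4 are in this list too), 7 were higher and 10 lower with the B4GALNT1 shRNA, and 6 higher and 8 lower with the ANXA4 shRNA. DAXX, a chaperone that binds MDM2, fell by 0.42 log2 with the B4GALNT1 shRNA and by 0.34 with the ANXA4 shRNA. TP53BP2, which encodes a p53-binding protein that favours apoptotic targets, fell by 0.53 and TP73 by 0.42 with the B4GALNT1 shRNA. SETD7, a methyltransferase, rose by 0.69 log2 with the ANXA4 shRNA and TP53BP1 fell by 0.30. With the NT gRNA against the NT shRNA, 6 were higher and 12 lower, among them the checkpoint kinase gene CHEK1, which fell by 0.53 log2. Of this list limma and voom each called 0 genes with the B4GALNT1 gRNA and 0 between the arrays, with 0 at an unadjusted limma p under 0.05 in either. At an unadjusted voom p under 0.05 there were 3 of 29 with the gRNA and 0 of 28 between the arrays.

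Of 39 tested further p53 targets, 18 were lower and 5 higher with the B4GALNT1 shRNA, with a median of -0.139 log2. IER5, an immediate-early gene, held 12.8 to 14.4 FPKM against 21.4 to 24.1 FPKM (-0.73 log2), and PMAIP1, which encodes the BH3-only protein NOXA, 45.2 to 46.6 FPKM against 61.4 to 62.3 FPKM (-0.42 log2). TRAF4 fell by 0.46 and PRKAB1, a subunit of AMP-activated kinase, by 0.46. With the ANXA4 shRNA 15 of 39 were lower and 9 higher: the helicase gene ASCC3 fell by 1.21 log2, to 5.37 to 6.04 FPKM from 14.0 to 14.7 FPKM, and PLXNB2 by 0.44. TNFRSF10D, a decoy death receptor, rose by 0.90 and CDC42SE1 by 0.61. With the NT gRNA against the NT shRNA 12 were higher and 12 lower, and the keratin gene KRT8 rose by 0.43. In the test of B4GALNT1 by shRNA against B4GALNT1 by gRNA, 15 of the 39 were lower and 5 higher. Limma and voom each called 0 of the 39 with the B4GALNT1 gRNA (2 at an unadjusted p under 0.05) and 0 between the arrays (5 at an unadjusted p under 0.05).

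**Figure D4:**
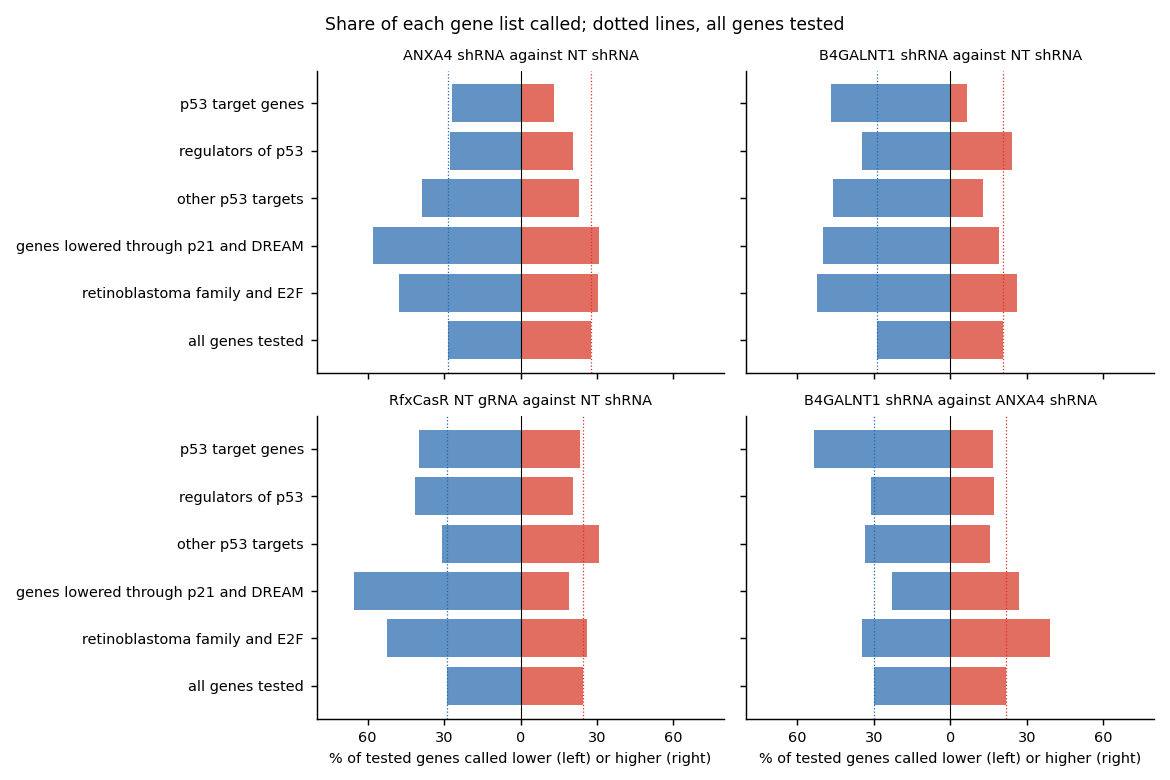
Share of the tested genes in each list called lower (blue, to the left) or higher (red, to the right) in 4 comparisons, with dotted lines at the shares over all genes tested. With the B4GALNT1 shRNA 46.7% of the p53 target genes were lower against 28.9% of all genes, and with the ANXA4 shRNA 26.7% were lower against 28.3%.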

How the data were processed

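Messenger RNA of 21 HEK 293FT libraries, 7 groups of 3, was analysed from deposited tables. The submitters' processing notes name hg19 as the build and list HOMER, STAR, FastQC, R 3.3.2 and DESeq2 1.14.1. Per the file headers, HOMER counted exon reads on the sense strand and the authors deposited FPKM for 27142 genes. The authors' 4 deposited comparison tables give, for each gene, its adjusted p-value, its log2 fold change and a mean normalized count (a signal), used only as the authors' values. Whole reads were recovered from FPKM and exon length within 0.1 for 95.6% to 99.5% of values, which gave depth. No replicates were duplicates.

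Values were taken as log2(FPKM + 1), and genes that reached 1 FPKM in 3 libraries or more were kept. limma 3.58.1 (R 4.3.3, variance trend on) fitted the group means, over the 15 libraries without arrays and separately over the 6 array libraries, with Benjamini-Hochberg adjustment over all genes of a comparison (called under 0.05). The fits were tested on simulated data. The members and gene lists were chosen with earlier results of these data known. Every member is named at least once, but not in every comparison. Library values are given for MDM2, AEN, DDB2, CDKN1A and MDM4 and for up to 6 called members per direction and comparison with the smallest adjusted p, once each. 1 gene of a pathway list is not reported here. Each pathway list names up to 4 called genes per comparison by adjusted p. Alternatives were another pseudocount (0.1), filters, scalings, fits, threshold, voom, a replicate block and leaving out each library.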

Additional observations from a re-analysis of the deposited data

Results flagged for a closer look

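The B4GALNT1 effect by shRNA differed from that by gRNA, by a test of the difference itself in the model of the 15 libraries without arrays, for 12 of 30 p53 target genes and for 35.5% of all genes tested. Differences are the shRNA effect minus the gRNA effect on the log2(FPKM + 1) scale, at a limma adjusted p under 0.05. The hairpin effect was lower for TP53INP1 (-0.56), AEN (-0.55), MDM2 (-0.52), DDB2 (-0.48), ZMAT3 (-0.44), SUSD6 (-0.44), RRM2B (-0.37), TNFRSF10B (-0.28), TRIAP1 (-0.22) and PHPT1 (-0.20). It was higher for GADD45B (0.45) and POLH (0.35). The PHPT1 call was lost on leaving out any of 6 libraries: NT shRNA replicates 2 and 3, B4GALNT1 shRNA replicates 1 and 2, NT gRNA replicate 1 and B4GALNT1 gRNA replicate 2 (adjusted p 0.0535 to 0.0944). It was also lost on median centring (0.126), without the filter (0.0683), without the variance trend (0.0598) and with voom (0.0618). The fits over 21 libraries (0.0797) and of only the groups compared (0.052) did not call PHPT1 either. For GADD45B the gRNA libraries themselves stood at 13.5 to 14.1 FPKM against 15.9 to 17.6 FPKM in the NT gRNA libraries, without being called in that comparison.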

How the results depend on the processing

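No called member changed sign under any alternative run. For the B4GALNT1 shRNA, 13 members were lower on leaving out any library (main 14), 2 to 3 were higher, and 5997 to 6154 genes of all were called. With a filter of 5 FPKM 1 member was higher. Median centring turned the split of all genes from 2774 higher and 3915 lower to 3535 and 3035, while members stood at 3 and 11. For the ANXA4 shRNA, leaving out a library gave 3 to 6 members higher, 6 to 9 lower and 6984 to 7124 genes, and at an adjusted p under 0.01 5 members were lower. For the NT gRNA against the NT shRNA the ranges were 6 to 7, 8 to 10 and 6502 to 6663. Median centring left 7 members lower and turned all genes from 3320 higher and 3931 lower to 4027 and 3094. The threshold of 0.01 left 4 members higher and 6 lower. Between the hairpins the ranges were 3 to 5, 13 to 15 and 6322 to 6463, with 3 higher without ANXA4 shRNA replicate 2 and 2 higher at 0.01. Median centring turned all genes from 2940 higher and 4036 lower to 3559 and 3276. For the difference between methods they were 2 to 3, 9 to 10 and 4313 to 4512, with 1 higher at 5 FPKM, 3131 genes at 0.01 and a split of 2634 and 2096 when centred (main 2074 and 2734). With the B4GALNT1 gRNA, 3 genes of all were called, 1 to 2 on leaving out a library. No filter and quantile scaling each gave 5, voom 13, and the fits of 21 libraries, of only these groups and at 0.01 each gave 1. Between the arrays, 4 genes were called, 0 to 8 on leaving out a library, 2 with no filter, no trend or 0.01, 39 in a fit of 21 libraries and 7 with voom. The cause of these shifts was not tested, and 0 members were called in any of these fits. Same-numbered libraries did not deviate together over all genes (median r 0.002 over 63 pairs). In every group without arrays, however, replicate 1 was the deepest library and replicate 2 the shallowest. With the NT shRNA, replicates 1, 2 and 3 had 24.2, 22.7 and 23.1 M reads. The correlation therefore cannot decide whether the numbers mark a shared run or culture. With a replicate block, the counts of members lower were 14 for the B4GALNT1 shRNA, 7 for the ANXA4 shRNA and 10 for the control comparison, the gRNA comparison had 1 call over all genes and the arrays 7. FAS and EDA2R, under 1 FPKM, were tested only without the filter and were not called there. Fits of only the groups compared add nothing for the arrays.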

Other observations

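Genes that p53 lowers through p21 and the DREAM complex, and genes of the retinoblastoma and E2F pathway, were counted in the same fits. E2F1 belongs to both lists. Of 26 tested DREAM genes, 13 were lower and 5 higher with the B4GALNT1 shRNA, and 15 lower and 8 higher with the ANXA4 shRNA, beside 28.9% of all genes lower and 20.5% higher, and 28.3% and 27.8%. The replication helicase subunit MCM5 was at 84.6 to 93.2 FPKM with the NT shRNA, 50.5 to 53.7 with the B4GALNT1 shRNA and 54.5 to 58.2 with the ANXA4 shRNA. With the B4GALNT1 shRNA CDK1 fell by 0.61 and cyclin A2 (CCNA2) by 0.54 on the log2 scale, while PRC1, which bundles spindle microtubules, rose by 0.39. Against the ANXA4 shRNA the B4GALNT1 shRNA had 6 DREAM genes lower and 7 higher, beside 29.8% and 21.7% of all genes. With RfxCasR and the NT gRNA, where CDKN1A was 64.7% higher than with the NT shRNA, 17 of 26 DREAM genes were lower and 5 higher, beside 29.0% and 24.5% of all genes. E2F1 fell there by 0.97, from 59.9 to 62.6 FPKM down to 30.5 to 31.3 FPKM. Whether these changes are linked to CDKN1A was not tested.

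Of 23 tested genes of the retinoblastoma and E2F list, 12 were lower and 6 higher with the B4GALNT1 shRNA and 11 lower and 7 higher with the ANXA4 shRNA, beside 28.9% of all genes lower and 20.5% higher, and 28.3% and 27.8%. CDK4, the partner kinase of D-type cyclins, was at 131.7 to 143.1 FPKM with the NT shRNA, 58.8 to 66.1 with the B4GALNT1 shRNA and 61.8 to 67.9 with the ANXA4 shRNA, and both differences were called (-1.11 and -1.06 log2). Both use the same NT shRNA libraries. CDK6 went in opposite directions: it was at 5.25 to 5.69 FPKM with the NT shRNA, 13.6 to 15.1 with the ANXA4 shRNA and 3.63 to 3.95 with the B4GALNT1 shRNA, and the direct difference between the hairpins was -1.68 log2 (limma adjusted p = 5.3e-12). Limma and voom each called 0 genes of either list between the arrays and 0 with the gRNA against B4GALNT1. At an unadjusted limma p under 0.05 there was 1 such gene, of the retinoblastoma and E2F list between the arrays. With voom there were 2 of that list and 1 of the DREAM list between the arrays, and 0 of either with the gRNA.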
